A study of Homo sapiens and Mus musculus with 13 samples.

Results

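The oligoadenylate synthetase (OAS) family was followed in 2 RNA-Seq tables, 1 of mouse mammary tumors and 1 of a human breast cancer cell line. The members are named genes, Oas1a, Oas1g, Oas2, Oas3, Oasl1 and Oasl2 in mouse and OAS1, OAS2, OAS3 and OASL in human, so they are 10 of the 79751 gene symbols in both tables. They were chosen by name with their FPKM in these libraries known, among them the low Oas2 and Oasl2 values of Trim11+/- tumors, so what follows describes them. The tumors were 3 from Trim11+/+ and 3 from Trim11+/- mice, all 3 months old. The titles number the tumors but do not say whether each came from a different mouse. All mice were hybrids of C57BL/6N and the strain FVB/N-Tg (MMTV-PyVT) 634Mul/J (the labels count this strain number up by 1 from tumor to tumor). In this strain a viral promoter active in the mammary gland drives the polyoma middle T oncogene. In the Trim11+/- mice 1 copy of Trim11 carried a CRISPR/Cas9 deletion of exons 2 to 6 in every tissue, not in the tumor cells alone. The cell line was MDA-MB-231, a human triple-negative breast cancer line. It was treated with a guide RNA against GFP (Control, 1 library), with TRIM11 guide 1 or 2 (TRIM11-KD1, TRIM11-KD2), with KDM5C guide 1 or 2 (KDM5C-KD1, KDM5C-KD2), or with TRIM11 guide 1 or 2 together with KDM5C guide 2 (DKD1, DKD2). Both DKD lines thus carry the same KDM5C guide. The study asked how TRIM11, a ubiquitin ligase, acts on the histone demethylase KDM5C.

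OAS enzymes are sensors of double-stranded RNA. When they bind it, they join ATP into short chains of adenylate with unusual linkages, called 2-5A, which act as a second messenger of the antiviral response. The genes are classical targets of interferon, whose signal reaches a DNA element in their promoters called the ISRE, and both tumor cells and the immune cells among them can express them. The OASL proteins carry ubiquitin-like domains, and human OASL makes no 2-5A.

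The promoters of OAS1 and OAS3, the members with an entry in the promoter table used here, are shown for this element. The promoters of OAS2 and OASL were not analysed here. Each is the 150 bases before the RefSeq start on the plus strand of GRCh38.p14, at chr12:112906812-112906961 for OAS1 and chr12:112938324-112938473 for OAS3, and capitals mark the core of the ISRE, read as 1 GAAA, 1 or 2 bases of any kind and another GAAA.
OAS1: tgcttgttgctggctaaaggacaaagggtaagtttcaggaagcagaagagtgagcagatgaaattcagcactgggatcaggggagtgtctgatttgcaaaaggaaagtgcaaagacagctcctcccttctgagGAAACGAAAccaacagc
OAS3: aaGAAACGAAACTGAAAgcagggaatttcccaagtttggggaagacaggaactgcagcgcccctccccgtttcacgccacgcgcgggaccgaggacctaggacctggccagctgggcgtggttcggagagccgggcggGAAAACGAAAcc
In OAS1 the match GAAACGAAA runs from -17 to -9 relative to the start. In OAS3 the match GAAAACGAAA runs from -12 to -3, and GAAACGAAA and GAAACTGAAA overlap between -148 and -134. Of 35116 promoters of 250 bases searched on both strands, 5.48% held either spacing. A match is a description of letters, and no binding was measured here.

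In mouse, the genes Oas1a and Oas1g are near copies of each other, which bears on how far their values can be told apart. The first 60 coding bases of 4 mouse Oas1 genes are shown, with capitals at positions that differ from Oas1a.
Oas1a: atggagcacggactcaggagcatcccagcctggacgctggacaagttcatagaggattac
Oas1g: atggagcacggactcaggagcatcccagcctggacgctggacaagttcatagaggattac
Oas1b: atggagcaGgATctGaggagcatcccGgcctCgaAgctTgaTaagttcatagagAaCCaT
Oas1c: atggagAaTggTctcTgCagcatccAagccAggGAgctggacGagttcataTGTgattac
Oas1g had no difference from Oas1a in this stretch, whereas Oas1b and Oas1c each had 13. Over the whole coding sequence Oas1a and Oas1g were identical at 1065 of 1101 bases, or 96.7%. Of the 150-base windows in the transcripts of Oas1a, 32.4% occurred exactly in Oas1g, and of those in Oas1g 24.1% occurred in Oas1a. How the counting divided such reads is not given in the sources used here, so the values of these 2 genes are uncertain against each other. The other mouse members and the 4 human members shared no such window with another gene.

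All mouse members lie on chromosome 5 of mm10 in 2 clusters. Oasl2 (114896936 to 114912234) and Oasl1 (114923240 to 114937915) are neighbours on the plus strand. Oas2 (120730333 to 120749853), Oas3 (120753098 to 120777661), Oas1g (120876142 to 120887613) and Oas1a (120896256 to 120907521) lie on the minus strand of the second cluster. The human genes lie on chromosome 12 of hg19, OAS1 (113343661 to 113371024), OAS3 (113375856 to 113414265) and OAS2 (113416200 to 113449528) side by side on the plus strand and OASL (121455566 to 121477049) apart from them on the minus strand.

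Read numbers of tumors given here were worked back from FPKM and annotated gene lengths. By these the tumor libraries held between 8793199 and 11117125 reads, and the depth of the cell line libraries is unknown. Epithelial markers summed to between 1671 and 2251 FPKM in the 6 tumors. In the cell line VIM was between 1038 and 1309 FPKM, and of the receptors that define a triple-negative line ESR1 was at most 0.023 FPKM and PGR was listed at 0, but ERBB2 was between 17.8 and 23.7 FPKM. The epithelial CDH1 reached 1.98 FPKM and the leukocyte gene PTPRC 0.979 FPKM. Trim11 was 37.1 ± 1.84 FPKM (SD, n = 3) in Trim11+/+ and 23.2 ± 0.660 FPKM (SD, n = 3) in Trim11+/- tumors, with no overlap. In the cell line KDM5C was 30.3 FPKM in Control and between 18.8 and 22.7 FPKM in the 4 libraries with a KDM5C guide. TRIM11 was 12.6 FPKM in Control, 10.6 in TRIM11-KD2 and 9.38 in DKD2, but 13.4 FPKM in the library labelled TRIM11-KD1 and 16.1 FPKM in the one labelled DKD1. These 2 libraries, named below by their labels, did not have less TRIM11 mRNA than Control. The paper made its knockdown lines with CRISPR/Cas9 and checked them by western blot, and RNA-Seq does not measure protein.

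All 10 members passed the filter for testing, a mean of at least 0.5 FPKM over the libraries of their table. In tumors, the members had lower mean levels in Trim11+/- mice, all 6 of 6, most clearly Oas2 and Oasl2. The median log2 fold change was -1.12 for the members and -0.00475 over all genes, so a lower mean alone sets no gene apart. FPKM counts fragments per length of gene and per size of library, so levels of different genes can be set side by side. Oas1a had the highest level of the members in each of the 6 tumors, and Oas3 the lowest. In Trim11+/+ tumors the mean FPKM ran from Oas1a through Oas2, Oasl2, Oas1g and Oasl1 to Oas3. Only Oasl1 and Oas3, the last neighbours in this order, had tumor values that did not overlap.

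Oas2, a synthetase with 2 copies of the catalytic fold, had 7.96, 15.7 and 15.1 FPKM in Trim11+/+ tumors 1 to 3 and 3.05, 3.91 and 2.07 FPKM in Trim11+/- tumors 1 to 3. Every Trim11+/- tumor was thus below every Trim11+/+ tumor, and the values rested on 99 to 709 reads. The mean fell from 12.9 ± 4.31 FPKM (SD, n = 3) to 3.01 ± 0.920 FPKM (SD, n = 3), a 4.29-fold lower level, with a log2 fold change of -1.77 (standard error 0.29) on the log2(FPKM + 1) scale.

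Oasl2, which in mouse has both a working catalytic site and ubiquitin-like domains, had 6.56, 15.6 and 11.2 FPKM in Trim11+/+ tumors and 5.09, 4.48 and 0.964 FPKM in Trim11+/- tumors. The groups again did not overlap, although Trim11+/+ tumor 1 and Trim11+/- tumor 1 lay close together. The level was 11.1 ± 4.53 FPKM (SD, n = 3) against 3.51 ± 2.23 FPKM (SD, n = 3), 3.17-fold lower, with a log2 fold change of -1.51 (standard error 0.49).

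Oas1a, 1 of the active small synthetases, had 12.2, 20.3 and 21.1 FPKM in Trim11+/+ tumors and 7.97, 12.8 and 2.96 FPKM in Trim11+/- tumors. The groups overlapped, since Trim11+/- tumor 2 stood above Trim11+/+ tumor 1. The ratio of the means was 0.442 and the log2 fold change -1.22 (standard error 0.46). Its near copy Oas1g had 3.44, 7.15 and 6.69 FPKM against 2.19, 5.83 and 0.557 FPKM, in the same order of tumors but for the 2 highest. The 0.557 FPKM of Trim11+/- tumor 3 stood for 14 reads, with an exact Poisson 95% interval of 7.65 to 23.5 reads that covers counting error only.

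The remaining members had the lowest levels and a wide spread. Oas3, the long synthetase that prefers long double-stranded RNA, had 0.233, 1.36 and 0.902 FPKM in Trim11+/+ and 0.496, 0.450 and 0.0790 FPKM in Trim11+/- tumors, from between 6 and 98 reads. Trim11+/+ tumor 1 was below 2 of the 3 Trim11+/- tumors. Oasl1, which lacks 2-5A synthesis and restrains translation of Irf7, had 2.18, 4.30 and 3.90 FPKM against 3.00, 3.40 and 0.535 FPKM, and here too Trim11+/+ tumor 1 was below Trim11+/- tumors 1 and 2. The ratios of the means were 0.410 for Oas3 and 0.669 for Oasl1. The log2 fold changes were -0.41 (standard error 0.29) for Oas3 and -0.54 (standard error 0.43) for Oasl1 on the log2(FPKM + 1) scale, which understates changes at such low levels. With a pseudocount of 0.1 they were -1.02 and -0.85, and in limma voom on whole reads -1.31 and -0.92. Single tumors also moved them. Oas3 was at -0.21 without Trim11+/+ tumor 2, at -0.26 without Trim11+/- tumor 3 and at -0.68 without Trim11+/+ tumor 1, and Oasl1 was at -0.05 without Trim11+/- tumor 3 and at -0.81 without Trim11+/- tumor 2.

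**Figure D1:**
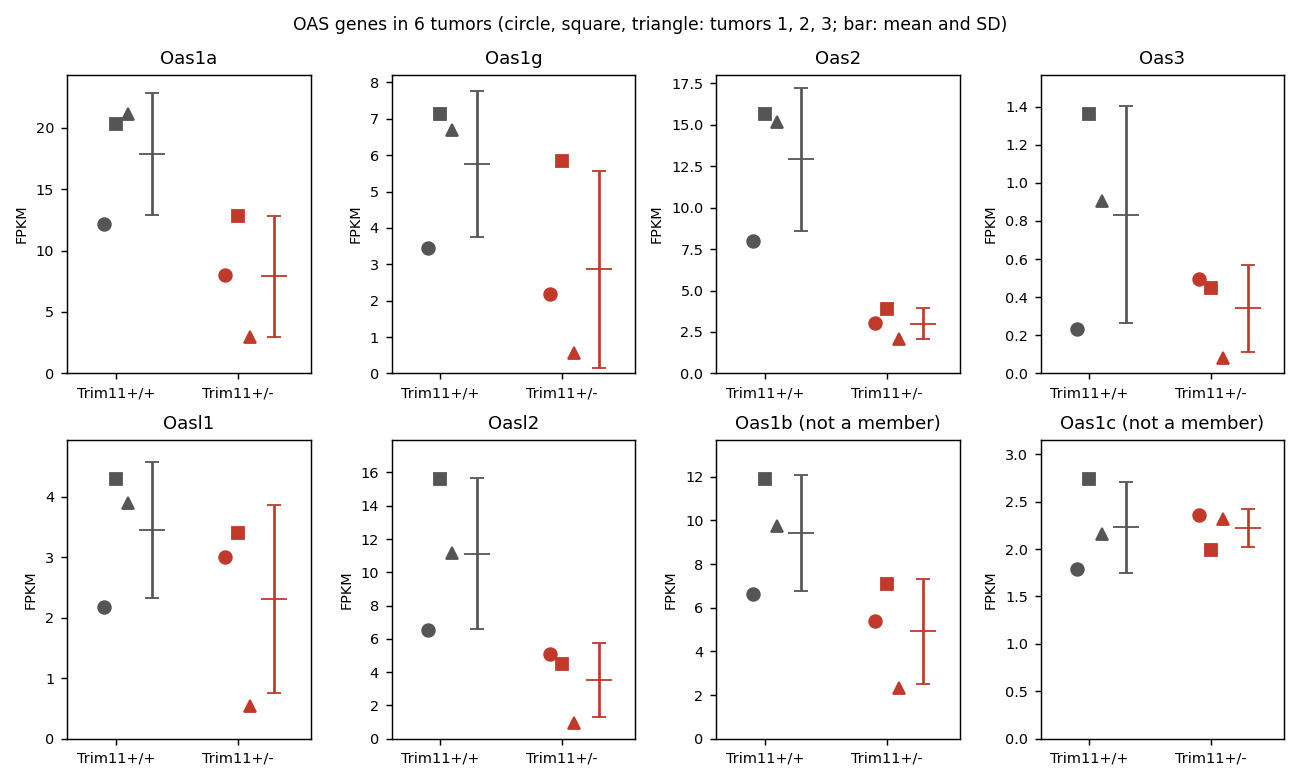
Expression in FPKM (y axis, a separate scale for each gene) of the 6 mouse members and of Oas1b and Oas1c in Trim11+/+ (grey) and Trim11+/- (red) tumors, with 1 point per tumor and the mean with SD beside the points. Oas2 and Oasl2 do not overlap between the genotypes, Trim11+/- tumor 3 (triangle) is the lowest of 6 for each member, and Oas1c shows no such order.

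The members shared part of their order of tumors within each genotype. Trim11+/+ tumor 1 was the lowest of its genotype for each member, but Trim11+/- tumors 1 and 2 changed places between members. Trim11+/- tumor 3 was the lowest of the 6 for each of the 6 members, an order that 20.9% of the 17328 genes tested shared. Trim11+/+ tumor 2 or 3 was the highest for each member. The FPKM summed over the members was 32.6, 64.4 and 58.9 in Trim11+/+ tumors 1 to 3 and 21.8, 30.9 and 7.17 in Trim11+/- tumors 1 to 3. Trim11+/+ tumor 1 and Trim11+/- tumor 2 thus had nearly the same sum. Over the 6 tumors, Pearson's r between pairs of members on the log2 scale ran from 0.690 (Oas2 and Oasl1) to 0.976 (Oas1a and Oas1g), a description in which both genotypes, and for the last pair shared sequence, enter.

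By the study's criterion for a differentially expressed gene, a 1.5-fold difference of means and an unadjusted p under 0.05, 3 of the 6 members (Oas1a, Oas2 and Oasl2) were lower in Trim11+/- tumors and none was higher. Of all genes tested, 1.87% met the criterion as lower and 1.74% as higher. The same 3 members had an unadjusted p under 0.05, as had 6.94% of genes in either direction. A ratio of means at or below 1/1.5 was found for 5 members, all but Oasl1, and for 6.9% of genes. The complete separation of the tumors seen for Oas2 and Oasl2 was met by 6.78% of genes. These counts describe the members and are not a test, since the genotype difference was known when the members were chosen. After Benjamini-Hochberg adjustment over all genes in limma no member was under 0.05, the lowest adjusted p being 0.400 for Oas2, and 1 gene of the 17328 (0.00577%) was. Without Trim11+/+ tumor 2 or without Trim11+/+ tumor 3 only Oas2 met the criterion, and without Trim11+/- tumor 1 or without Trim11+/- tumor 3 Oas2 and Oasl2 did. With Trim11+/- tumor 3 left out the log2 fold changes of Oas1a, Oas1g and Oasl2 were nearer to 0, at -0.73, -0.48 and -0.996.

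The mouse table holds 6 more Oas1 genes. Oas1b, the flavivirus resistance gene, whose copy in many laboratory strains is truncated, lies between the members at 120812635 to 120824163 on the plus strand and is annotated as a polymorphic pseudogene. It had 6.62, 11.9 and 9.75 FPKM in Trim11+/+ and 5.37, 7.08 and 2.34 FPKM in Trim11+/- tumors, which is the order of tumors seen for Oas1g, with a log2 fold change of -0.87 (standard error 0.36) and a ratio of 0.523. It met the same criterion. Oas1c, at 120800194 to 120812514 beside it, had another order, with 1.79, 2.74 and 2.15 FPKM against 2.36, 1.99 and 2.32 FPKM and a log2 fold change of 0.01 (standard error 0.16). Trim11+/- tumor 3, lowest for every member, was the third highest for Oas1c. Oas1h reached at most 0.578 FPKM, Oas1d and Oas1e had 1 read in 1 tumor each, and Oas1f had none, so these were below the filter.

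The genes listed for the turnover of 2-5A did not share the lower level of the members, and none of the 5 met the criterion. Abce1, a ribosome recycling factor, and the enzymes that break down 2-5A, Pde12, Akap7 and Enpp1, had log2 fold changes between -0.08 and 0.04. Pnpt1, a mitochondrial exoribonuclease, was 1.33 times as high in Trim11+/- tumors, under the 1.5-fold limit but without overlap, as were 6.6% of genes in that direction.

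Other interferon-stimulated genes were lower as well. Of 25 listed genes of this kind, 7 met the criterion as lower and none as higher, beside 1.87% and 1.74% of all genes. Of these 25, 24 had a log2 fold change below 0, and their median was -0.65 beside -0.00475 over all genes. The median of the 6 Oas members was -1.12. The genes with the lowest values were Isg15, a ubiquitin-like protein, at 43.3 ± 18.5 against 16.1 ± 6.73 FPKM (SD, n = 3 each), and Ifi44, at 8.99 ± 3.14 against 3.84 ± 1.54 FPKM (SD, n = 3 each). The 7 became 5 with median-ratio scaling, without the trend or with any mean FPKM above 0 as the filter. Without Trim11+/+ tumor 2 the 7 became 1, and without Trim11+/+ tumor 1 they became 14. The count was 3 without Trim11+/+ tumor 3 and 2 without Trim11+/- tumor 3.

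Of 13 genes of double-stranded RNA sensing, 1 met the criterion as lower. It was Zbp1, a sensor of left-handed nucleic acid that is itself induced by interferon, named after its value was seen, and its log2 fold change was -0.96. The median of this list was -0.27. Irf7, the inducible interferon regulatory factor, had 19.5, 46.6 and 32.9 FPKM in Trim11+/+ tumors 1 to 3 and 22.7, 22.4 and 6.95 FPKM in Trim11+/- tumors 1 to 3, which overlap, with tumor 3 of the Trim11+/- mice again the lowest. The adaptor Mavs, the factor Irf3 and the kinase Tbk1, the highest of the sensing, signalling and interferon-stimulated lists among genes with a mean of at least 5 FPKM, had log2 fold changes of 0.07, 0.09 and 0.10. Of 14 genes of interferon signalling, 1 was lower by the criterion, Usp18, a brake on the interferon receptor that was also named after its value was seen, and the median was -0.19. The calls of Usp18 and Zbp1 were lost without Trim11+/+ tumor 2, without Trim11+/+ tumor 3 or without Trim11+/- tumor 3. Without Trim11+/+ tumor 1 the counts of the sensing and the signalling list were 2 and 4, and the signalling count was 3 without Trim11+/- tumor 2. None of 10 interferon genes looked up reached the filter, the highest being Ifnk with at most 0.341 FPKM.

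**Figure D2:**
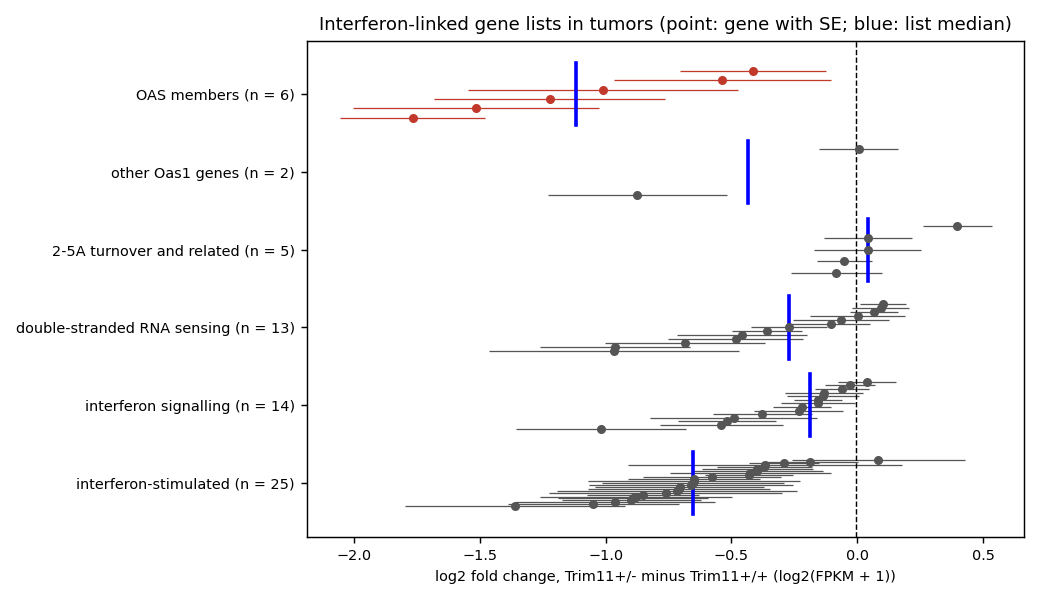
Log2 fold change of Trim11+/- against Trim11+/+ tumors (x axis, log2(FPKM + 1) scale) for each gene of 6 lists (y axis), with its standard error, the list median in blue and the median of all genes as a dashed line. The OAS members have a median of -1.12 and the interferon-stimulated genes of -0.65, and the 2-5A turnover list lies around the median of all genes.

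In bulk tumors fewer cells of a type and less RNA per cell cannot be told apart, so markers of other cells are given beside these results. Summed over 5 pan-leukocyte genes, FPKM was between 44.8 and 50.5 in Trim11+/+ and between 34.4 and 38.1 in Trim11+/- tumors, without overlap, though none of the 5 genes met the criterion. Of all tumor cell type markers tested, the neutrophil gene S100a9 alone met it, at 3.27 ± 1.94 against 0.793 ± 0.550 FPKM (SD, n = 3 each), named after its value was seen. Trim11+/+ tumor 1, the lowest of its genotype in 6 of 6 members, had its genotype's highest pan-leukocyte, macrophage, epithelial and B cell sums. It had the lowest of its genotype for T cell, neutrophil, fibroblast, endothelial, adipocyte and muscle markers. For dendritic and natural killer cell markers it lay between the others. Trim11+/- tumor 3 was the lowest of the 6 tumors for the pan-leukocyte, epithelial, T cell, dendritic, endothelial and adipocyte sums, but not the others. The 9 macrophage markers summed to between 694 and 798 FPKM in Trim11+/+ and between 600 and 743 FPKM in Trim11+/- tumors. The 8 T cell markers summed to between 2.67 and 7.15 and between 1.46 and 4.10 FPKM, and 3 of the 8 passed the filter. The 8 epithelial markers summed to between 1716 and 2251 FPKM in Trim11+/+ and between 1671 and 2194 FPKM in Trim11+/- tumors. The part of these cells in the OAS values was not tested.

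The genes whose pattern over the 6 tumors was most like the mean of the members, by Pearson's r on the log2 scale among 15203 genes, were Apol9b (0.997), Oas1b (0.995), Apol9a (0.995), Spout1 (0.994) and Parp14 (0.994). With only 6 points such values are common, since 263 genes had an r of at least 0.9. The genes nearest to each single member were Tbrg1 for Oas1a, Gm5874 for Oas1g, Pnrc1 for Oas2, Psme2 for Oas3, Cln6 for Oasl1 and Ppp1r18os for Oasl2. The r of Oas1c with the mean of the members was 0.193.

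In MDA-MB-231 cells no knockdown moved all 4 OAS genes past 1.5-fold of Control in both of its lines. OAS2 was lower than in Control in both KDM5C-KD lines. In DKD2, which also carries KDM5C guide 2, it was the highest of the 7 libraries, at 14.1 against 10.4 FPKM in Control. The 2 double knockdown lines stood far apart. OASL had the highest FPKM of the 4 genes in each of the 7 libraries.

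OAS1, the small synthetase, had 4.03 FPKM in Control, 4.12 and 3.99 in TRIM11-KD1 and TRIM11-KD2, 5.54 and 10.5 in the KDM5C-KD lines 1 and 2, and 1.85 and 7.83 FPKM in DKD1 and DKD2. Both TRIM11-KD libraries were thus near Control, and the DKD lines lay on either side of it. OAS2 had 10.4 FPKM in Control, 7.79 and 9.64 in TRIM11-KD1 and TRIM11-KD2, 5.04 and 6.20 in the KDM5C-KD lines 1 and 2, and 5.23 and 14.1 FPKM in DKD1 and DKD2. It was the only member past 1.5-fold of Control in both KDM5C-KD lines, at 0.485 and 0.597 of Control.

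OAS3 had 3.89 FPKM in Control, 4.29 and 5.65 in TRIM11-KD1 and TRIM11-KD2, 5.05 and 8.30 in the KDM5C-KD lines 1 and 2, and 3.95 and 9.06 FPKM in DKD1 and DKD2. Control was the lowest of the 7 for this gene. OASL, which binds and aids the RNA sensor RIG-I, had 14.2 FPKM in Control, 19.1 and 11.8 in TRIM11-KD1 and TRIM11-KD2, 12.3 and 11.7 in the KDM5C-KD lines 1 and 2, and 5.78 and 23.2 FPKM in DKD1 and DKD2. The DKD lines were its lowest and its highest libraries.

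**Figure D3:**
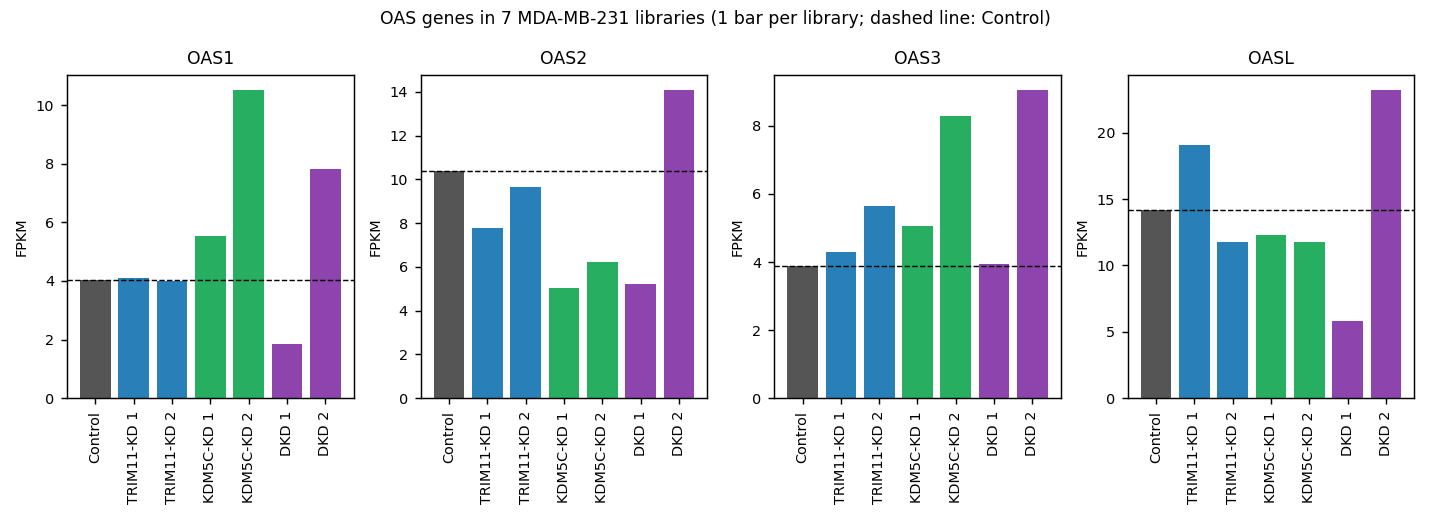
FPKM (y axis, a separate scale for each gene) of OAS1, OAS2, OAS3 and OASL in the 7 MDA-MB-231 libraries, 1 bar per library, with Control as a dashed line. DKD2 is above DKD1 for each gene, and OAS2 is below Control in both KDM5C-KD lines.

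Counted as at least 1.5 times above or below Control in both lines of a knockdown, 1 of the 4 members was past the limit in KDM5C-KD (OAS2, lower), none in TRIM11-KD and none in DKD. Of the 12636 genes tested, 3.68% were lower and 4.84% higher in both KDM5C-KD lines, 2.32% and 2.8% in both TRIM11-KD lines, and 4.59% and 5.38% in both DKD lines. With 1 Control library these ratios have no replicate check and no p-value. The 3 knockdowns share that library. OAS1 and OAS3 were 2.61 and 2.13 times Control in KDM5C-KD2, but 1.37 and 1.30 times Control in KDM5C-KD1. KDM5C-KD2 was at least 1.5 times above KDM5C-KD1 for these 2 of the 4 members, and for 6.76% of genes.

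DKD2 stood above DKD1 by 4.24 times for OAS1, 2.69 times for OAS2, 2.29 times for OAS3 and 4.02 times for OASL. All 4 members were thus past 1.5-fold between these lines, as were 6.79% of all genes in that direction. This is a comparison of 2 libraries without a test. Among all 7 libraries DKD2 was the highest for OAS2, OAS3 and OASL, an order met by 18.5% of genes, and DKD1 the lowest for OAS1 and OASL, met by 14.1%. Of the 4 members, 2 (OAS3 and OASL) had DKD1 lowest and DKD2 highest of the 6 knockdown libraries, as had 2.41% of genes. For OAS1, OAS2 and OASL the library labelled DKD1 was at 0.458, 0.504 and 0.407 of Control, and DKD2 was at 1.94, 1.36 and 1.64 times Control. The lines share KDM5C guide 2 and differ in the TRIM11 guide and in TRIM11 mRNA, 16.1 FPKM in DKD1 and 9.38 FPKM in DKD2. The same 2 TRIM11 guides without a KDM5C guide gave TRIM11-KD2 to TRIM11-KD1 ratios of 0.969, 1.24, 1.32 and 0.618 for OAS1, OAS2, OAS3 and OASL. The part of the guide in the difference between the DKD lines was not tested.

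**Figure D4:**
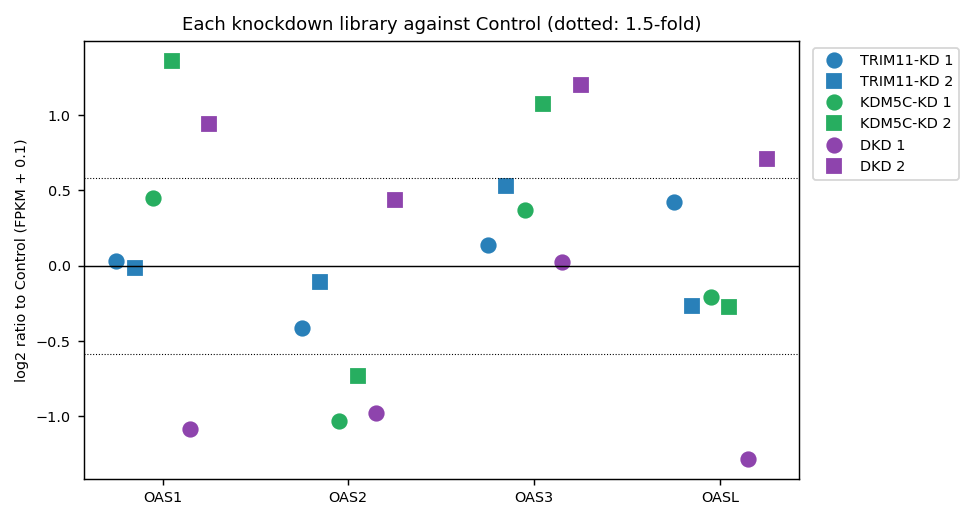
Log2 ratio of each knockdown library to Control (y axis, on FPKM + 0.1) for the 4 human members (x axis), with circles for lines numbered 1, squares for lines numbered 2, and dotted lines at 1.5-fold. DKD1 lies below Control and DKD2 above it for OAS1, OAS2 and OASL, and OAS2 is below the lower dotted line in both KDM5C-KD lines.

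Among the 6 knockdown libraries, limma with Benjamini-Hochberg adjustment over all genes gave no member an adjusted p under 0.05 in the 3 contrasts between knockdowns, and no other gene either. At an unadjusted p under 0.05 no member passed, beside 11.7% of genes between KDM5C-KD and DKD, 9.82% between KDM5C-KD and TRIM11-KD and 7.03% between DKD and TRIM11-KD. The member differences were small against their errors. Between KDM5C-KD and DKD, the log2 difference was 0.79 for OAS1 (standard error 0.54, higher in KDM5C-KD) and -0.56 for OAS2 (standard error 0.40). Both DKD lines carry KDM5C guide 2, whereas the KDM5C-KD lines carry guide 1 or guide 2. The contrast of KDM5C-KD with DKD and the interaction thus also hold the difference between KDM5C guides. KDM5C-KD2 to KDM5C-KD1 ratios were 1.90, 1.23, 1.64 and 0.958 for OAS1, OAS2, OAS3 and OASL. The interaction asked whether the TRIM11 guides acted differently with a KDM5C guide present. Its log2 values were between -0.80 (OAS1, standard error 0.85) and 0.79 (OAS2, standard error 0.63). The lowest member adjusted p was 0.909 in limma, and 2 of the 12636 genes (0.0158%) passed. No member had an unadjusted p under 0.05 for the interaction, and 5.49% of genes had.

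Of the 5 genes listed for 2-5A turnover in the cell line, ENPP1, which degrades 2-5A and other nucleotides, was the 1 gene past 1.5-fold in both lines of a knockdown, at 29.8 FPKM in Control, 17.0 in KDM5C-KD1 and 9.46 in KDM5C-KD2. It was 24.4 and 16.4 FPKM in the DKD lines. ABCE1 was between 43.9 and 57.9 FPKM throughout.

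The wider interferon-stimulated list did not follow one direction against Control. Of 26 genes tested, 1 was higher and 1 lower in both KDM5C-KD lines (MX1 and IFIT2), 1 was higher in both TRIM11-KD lines (MX1), and in both DKD lines MX1 was higher and IFI44, SAMD9 and SAMD9L, these 3 named after their values were seen, were lower. The medians of the log2 ratios were -0.18, 0.15 and -0.20. MX1, an antiviral GTPase, was 4.62 FPKM in Control and 7.91 ± 1.09, 8.12 ± 0.939 and 10.7 ± 1.12 FPKM (SD, n = 2 each) in KDM5C-KD, TRIM11-KD and DKD. It thus stood above Control in each knockdown. IFI6, a mitochondrial antiviral protein, was 33.9 ± 24.4 FPKM (SD, n = 2) in KDM5C-KD, so its lines were far apart. From DKD1 to DKD2, 8 of the 26 genes were at least 1.5 times higher and none lower, with a median log2 ratio of 0.55, beside 1.70 for the OAS members and 0.0095 for all genes.

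Of 10 genes of double-stranded RNA sensing tested, IFIH1 was higher in both TRIM11-KD lines and IKBKE, a kinase upstream of interferon genes, in both DKD lines, at 10.6 ± 3.30 FPKM (SD, n = 2) against 4.98 FPKM in Control. DDX58, the gene of RIG-I, was 9.50 ± 3.11 FPKM in KDM5C-KD and 12.3 ± 2.44 FPKM in DKD (SD, n = 2 each) against 17.0 FPKM in Control, and EIF2AK2, the RNA-activated kinase PKR, was 14.4 ± 1.43 FPKM (SD, n = 2) in DKD against 21.8 FPKM. Neither was past the limit in both lines. Of the interferon signalling genes, SOCS1, an inhibitor of JAK kinases, was higher in both TRIM11-KD and both DKD lines, and JAK2 was lower in both DKD lines. IFIH1, SOCS1 and JAK2 were named after their values were seen. Among interferon genes IFNL1 reached 1.28 FPKM and was above 0 in 5 of the 7 libraries, and IFNB1 was listed at 0 in all 7.

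The human members followed each other to different degrees. Over the 7 libraries, some of which share a guide, Pearson's r between pairs on the log2 scale ran from 0.242 (OAS1 and OAS2) to 0.847 (OAS1 and OAS3). The genes most like the mean of the 4 members, among 11771, were MAGEH1 (0.962), TTC9 (0.948), MBOAT1 (0.940), ZNF384 (0.937) and LPIN2 (0.935), and 30 genes had an r of at least 0.9. The nearest to single members were ACAA1 for OAS1, MOB1A for OAS2, TTLL5 for OAS3 and HSP90AA1 for OASL. These lists hold no gene of the interferon-stimulated list, whereas the tumor list holds Parp14.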

How the data were processed

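RNA-Seq was performed on 6 tumors and 7 cell line libraries. The authors aligned reads by HISAT2 against mm10 (tumors) or hg19 (cells), made FPKM values, per the paper's methods with Cufflinks, and deposited them in 2 tables. Bowtie 0.12.2 is also named in the submitters' processing notes. The deposited tumor FPKM gave whole reads (within 0.01) in all 6 tumors for 99.4% of 53455 genes, with a median library total of 10456117. The cell line FPKM carry no read numbers.

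Genes were tested where their mean FPKM was 0.5 or more, on log2(FPKM + 1) with limma 3.58.1 in R 4.3.3 (lmFit, eBayes with trend). The fit was also run on simulated data whose noise was the same for every gene and smaller than the spread of the tumor members. That run thus does not show how well changes of the members would be found. Ratios to Control used FPKM + 0.1. The 2 lines of each knockdown differ in a guide, so their spread includes differences between guides. Labels do not say whether the lines were also separate cultures, so guide, culture and technical spread cannot be told apart. Of the human symbols, 25 that had become dates were not used, and TRIM25 was left out because its entry is shared with another gene. Positions come from mm10 and hg19 annotations, mouse coding sequences from GENCODE vM21, and promoters from RefSeq, in which 2 of 4 human members matched.

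The members, lists and tests were chosen with earlier results of these data known. Named genes are all members, the other mouse Oas genes, the 2-5A turnover list, the 3 highest and 3 lowest list genes per comparison with a mean FPKM of at least 5, of which the text gives a part, and the genes most alike to the members with a mean FPKM of at least 1. Some listed genes are not reported here. Markers of 12 tumor cell types were summed. Alternatives were other pseudocounts, filters, scaling, no trend, limma voom on whole reads, a fold of 2, a replicate block, both lines averaged, Control in the fit, and each replicate left out.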

Additional observations from a re-analysis of the deposited data

How the results depend on the processing

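The 3 tumor members lower by the criterion (Oas1a, Oas2, Oasl2) were the same 3 under another pseudocount, both filters, median-ratio scaling, no trend, limma voom on whole reads and the replicate block. Leaving out each tumor gave between 1 and 4 members. Oas2 was in every count, and its log2 fold change ran from -2.09 to -1.59. Of the KDM5C-KD members, 1 past 1.5-fold became 0 at a fold of 2 and 3 by the mean of both lines (OAS1 and OAS3 higher, OAS2 lower), and leaving out a line gave 1 to 3. In DKD, 0 became 1 by the mean of both lines (OAS3), and 3 when either line was left out, OAS1, OAS3 and OASL higher without DKD1 and OAS1, OAS2 and OASL lower without DKD2. TRIM11-KD stayed at 0 under each alternative. No member passed adjustment in a contrast between knockdowns or the interaction under any alternative. The cause of these changes was not tested, and each fit with a tumor or line left out also had fewer samples.

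Tumors with the same replicate number had deviations correlated at -0.33, 0.04 and -0.13. Between tumors with different numbers the correlations ran from -0.29 to 0.37. With 3 tumors a genotype these values cannot show whether the numbers stand for a pairing or a batch. With the replicate block 284 genes were lower and 289 higher over all genes, against 324 and 301 without it, and the members lower stayed at 3. In the cell lines the correlations were 0.09, 0.27 and 0.37, and the block gave no member an adjusted p under 0.05 in limma (lowest 0.346). With 3 tumors a genotype, and 6 reads at the least for Oas3, small differences are not resolved.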

Other observations

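The genes beside the OAS clusters were also read. Of 26 mouse genes that passed the filter within 300000 bases of either cluster, none met the criterion in tumors, beside 1.87% of all genes as lower. Their log2 fold changes ran from -0.51 (Sdsl) to 0.25 (Slc8b1). Of 11 human genes within the same distance, none was past 1.5-fold of Control in both lines of a knockdown.

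Other marker lists in tumors were spread widely within each genotype. Skeletal muscle markers summed to between 18.1 and 196 FPKM in Trim11+/+ and between 1.64 and 223 FPKM in Trim11+/- tumors, and fibroblast markers to between 139 and 303 and between 129 and 213 FPKM. Neutrophil markers summed to between 18.2 and 37.3 and between 17.7 and 20.5 FPKM. Endothelial markers summed to between 11.5 and 17.9 and between 9.66 and 16.0 FPKM, adipocyte markers to at most 98.5 and at most 63.2 FPKM, dendritic cell markers to between 4.68 and 6.28 and between 2.88 and 4.76 FPKM, and natural killer cell markers to between 1.55 and 7.54 and between 2.76 and 3.96 FPKM. None of the 4 B cell markers passed the filter.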
